A study of Mus musculus with 8 samples.

Results

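Col4a1 and Col4a5, which encode chains of collagen IV, and Lama4, which encodes an alpha chain of laminin, were followed across 4 fractions of sorted mouse ES cells. The 3 genes were taken by name, and each was represented by the 1 probe that the study's list of genes differing among these fractions pairs with its symbol, 3 of the 1998 symbols read from that list and of 42006 distinct probes on the array. The list is longer than the 1998 rows used here, and statements below on what it names cover these rows alone. HV ES cells (written HIV in the sample labels; strain 129/Ola, a knock-in) carry a tagged Hex cDNA followed by an artificial internal ribosome entry site and the fluorescent protein Venus in the Hex gene, so that Venus reports Hex transcription with amplified translation. Cells of 2 clones, 5.1 and 16.1, were kept in LIF for 24 hours and sorted by Venus (V) and by SSEA-1 (S), a surface carbohydrate of undifferentiated ES cells, into cells with SSEA-1 alone (V-S+), with both (V+S+), with neither (V-S-) and with Venus alone (V+S-), which gave 8 samples. All of these groups therefore share the targeted Hex allele, serum and LIF, and each clone is a single targeted line. RNA of every fraction was labelled with Cy3 and hybridised with Cy5-labelled RNA of a pool of mouse cell lines, the same reference on all arrays, so each level below is a log2 ratio of sample to reference and levels of different genes cannot be compared with each other.

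Basement membranes are sheets of extracellular matrix in which a laminin polymer on the cell surface is joined to a network of collagen IV. Each collagen IV molecule is a heterotrimer wound from alpha chains in the endoplasmic reticulum, and each laminin is a heterotrimer of an alpha, a beta and a gamma chain. Primitive endoderm and its parietal derivative are known as heavy producers of both, and lay down the thick membrane that surrounds the rodent embryo. Col4a1 encodes the alpha 1 chain, which pairs with the alpha 2 chain in nearly all basement membranes. Col4a5 encodes the alpha 5 chain, which is restricted to fewer tissues and is best known from the filter of the kidney. Lama4 encodes the laminin alpha 4 chain, typical of vessels, muscle and other mesodermal tissues.

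Each gene is read here through the single probe of 60 bases that the list pairs with it, and the first 30 bases of the member probes are shown because every value below rests on them.
Col4a1 probe, first 30 bases: ctgtgtacctcactgtccactatgaaaacc
Col4a5 probe, first 30 bases: ggtgctactaatcctaatgtaccacaggat
Lama4 probe, first 30 bases: ctaacactgaaataaacatagtagtggggg
The pairing of probe and gene was taken from the study's list and was not tested against transcripts, and the scanner files list these probes as unmapped.

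Collagen IV genes lie in head-to-head pairs, and both pairs that hold a member can be read from the RefSeq promoter windows (GRCm38.p6, 250 bases before each start and 50 after it). On chromosome 8 the first bases of Col4a1 (minus strand, 11312826) and Col4a2 (plus strand, 11312805) overlap by 22 bases, so that each gene begins inside the other. This stretch, chr8:11312805-11312826, is shown on the strand of Col4a1 because Col4a2 is the gene set beside Col4a1 below.
Col4a1 and Col4a2 starts: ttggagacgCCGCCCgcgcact
The capitals mark a GC box (GGGCGG on the strand of Col4a2). On chromosome X the stretch from the start of Col4a6 (minus strand, 141474076) to that of Col4a5 (plus strand, 141475419) spans 1344 bases with both starts counted, and the 250 bases before the start of Col4a5, chrX:141475169-141475418, lie between the starts of both genes.
Col4a5 upstream: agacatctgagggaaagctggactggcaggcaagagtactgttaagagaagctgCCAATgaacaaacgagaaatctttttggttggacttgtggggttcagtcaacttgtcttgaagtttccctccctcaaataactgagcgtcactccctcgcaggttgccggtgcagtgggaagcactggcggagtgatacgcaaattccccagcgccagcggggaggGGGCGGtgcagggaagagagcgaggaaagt
The capitals mark a CCAAT box and a GC box, 196 and 30 bases before the start. Of 32851 promoter windows searched on both strands, 37.4% held CCAAT, 35.7% GGGCGG, 13.6% TATAAA and 11.2% AGATAA, the last a GATA motif. The windows of Col4a1, Col4a2 and Col4a5 each held CCAAT and GGGCGG, that of Col4a6 held GGGCGG alone, and none of the 4 held TATAAA or AGATAA. The windows of Col4a1 and Col4a2 share bases and are not independent. Lama4 was not in the table of promoters.

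All 3 member probes were well above background in Cy3 in all 16 scans, and none was saturated. Cy3 signal stood 25.1 to 111 times above local background for Col4a1, 2.13 to 12.3 times for Col4a5 and 3.08 to 13.1 times for Lama4. The reference itself was bright for Col4a1 (101 to 130 times background in Cy5) and dim for Lama4 (2.94 to 3.43 times). Repeat scans of an array differed by at most 0.071 for Col4a1, 0.098 for Col4a5 and 0.13 for Lama4 in log2 ratio, and their mean was used. A slide held the 4 fractions of 1 clone, and differences between slides therefore cannot be told apart from differences between clones. Across the array the SD between scans lay between 0.074 and 0.088, and the probe at the median had a Cy3 signal between 2.35 and 2.87 times background. Precision is limited by the number of arrays, 2 per fraction.

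Col4a1 was lowest in the Venus-negative fractions, intermediate in V+S+ and highest in V+S-. Clone 5.1 had a log2 ratio of -1.51 in V-S- and -1.55 in V-S+, and clone 16.1 had -1.65 and -1.36. In the same order of clones, the V+S+ samples were at -1.17 and -0.78, and the V+S- samples at -0.16 and -0.28. The V-S- and V-S+ samples overlapped, whereas both V+S+ samples lay above all 4 Venus-negative samples and both V+S- samples lay above all others. The mean of V-S- was -1.58 ± 0.10 (SD, n = 2) and that of V-S+ was -1.46 ± 0.13, whereas V+S+ had a mean of -0.97 ± 0.27 and V+S- one of -0.22 ± 0.08. V-S- and V-S+ did not differ beyond their spread.

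Col4a5 had the same order of means with a wider gap between clones. The V-S- samples were, for clone 5.1 and then clone 16.1, at -3.49 and -3.12, and their V-S+ samples at -3.31 and -2.83. The V+S+ samples were at -3.08 and -2.23, and the V+S- samples at -1.97 and -1.33. Only the V+S- samples stood clear of the rest: the V+S+ sample of clone 5.1 lay below the V-S+ sample of clone 16.1. The means of these fractions were -3.30 ± 0.26 (SD, n = 2), -3.07 ± 0.34, -2.65 ± 0.60 and -1.65 ± 0.45 in this order, and the first 3 overlapped in their spread over clones. Within each clone, however, the V+S+ sample lay above the V-S- sample, by 0.41 in clone 5.1 and 0.89 in clone 16.1, and tests that pair the samples by clone are given below.

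Lama4 was higher in both Venus-positive fractions than in both Venus-negative ones. The V-S- samples were, for clone 5.1 and then clone 16.1, at 0.24 and 0.63, and their V-S+ samples at 0.31 and 0.56. The V+S+ samples were at 0.96 and 1.83, and the V+S- samples at 1.49 and 2.02. All 4 Venus-positive samples lay above all 4 Venus-negative samples, and the V+S+ sample of clone 16.1 lay above the V+S- sample of clone 5.1. The mean of V-S- was 0.44 ± 0.27 (SD, n = 2) and that of V-S+ was 0.44 ± 0.18, whereas V+S+ had a mean of 1.40 ± 0.61 and V+S- one of 1.76 ± 0.38. Neither the Venus-negative pair nor the Venus-positive pair differed beyond its spread over clones. Within each clone, however, the V+S- sample lay above the V+S+ sample, by 0.53 in clone 5.1 and 0.19 in clone 16.1.

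**Figure D1:**
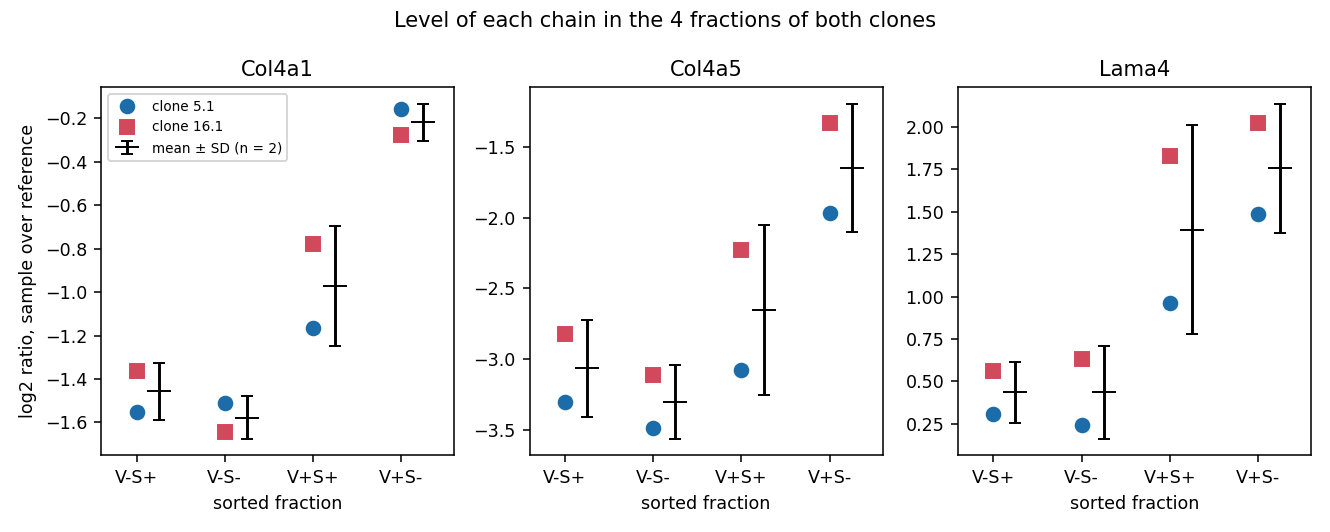
Log2 ratio of sample to reference (vertical axis, with a scale of its own in each panel) for Col4a1, Col4a5 and Lama4 in the 4 sorted fractions (horizontal axis). Circles are clone 5.1, squares clone 16.1, and black marks the mean ± SD of the 2 clones. Both V+S- samples lie above all Venus-negative samples in each panel. The V+S+ samples do as well for Col4a1 (-1.17 and -0.78) and for Lama4 (0.96 and 1.83).

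V+S- holds the cells sorted as positive for Venus and negative for SSEA-1, and V-S+ the cells in the opposite state. All 3 genes rose in V+S- against V-S+: Col4a1 by 1.24 on the log2 scale, 2.36-fold, Col4a5 by 1.42, 2.67-fold, and Lama4 by 1.32, 2.50-fold. The standard errors were 0.14, 0.35 and 0.32, and the adjusted p-values 0.0122, 0.0427 and 0.0412 (limma, Benjamini-Hochberg over 29484 probes). A gene is called here at an adjusted p below 0.05 and a difference of more than 1.5-fold, and 5.73% of all probes tested were called higher in this comparison. The study selected its list on the same arrays, and 48.1% of the list's 1998 probes were called higher, so that the 3 calls are a description and not independent evidence. In bulk RNA, fewer cells making a transcript and less transcript per cell cannot be told apart. With clone as a block in the model, all 3 were called as well (8.87% of all probes). In limma the call of Col4a1 was lost without any of 3 samples, V-S+ of clone 5.1 (adjusted p = 0.0907), V-S+ of clone 16.1 (0.1002) and V+S- of clone 16.1 (0.0703). Col4a5 and Lama4 lost it without any sample other than those of V+S+, with adjusted p-values between 0.0593 and 0.196 for Col4a5 and between 0.0622 and 0.185 for Lama4 (limma), while the log2 differences stayed between 1.05 and 1.74. Their calls also ended with processed scanner signals (adjusted p = 0.0649 for Col4a5 and 0.0569 for Lama4, limma), with median centring (0.0535 and 0.0515) and with the authors' own values (0.0950 and 0.0842), that of Lama4 with Cy3 alone (0.0550) and that of Col4a5 with no filter on dim probes (0.0501).

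Against V-S-, which lacks both markers, the 3 genes rose in V+S- by similar amounts. The log2 difference was 1.36 for Col4a1 (standard error 0.14), 1.65 for Col4a5 (0.35) and 1.32 for Lama4 (0.32), or 2.56-fold, 3.14-fold and 2.50-fold. The adjusted p-values were 0.0107, 0.0291 and 0.0392 (limma, Benjamini-Hochberg). Of all probes 6.3% were called higher, and of the list's 1998 probes 53.1%. With clone as a block all 3 genes were called again, as were 8.96% of all probes and 56.0% of the list's. The calls of all 3 were lost in limma without V-S- of clone 5.1, V-S- of clone 16.1 or V+S- of clone 16.1, with adjusted p-values between 0.0660 and 0.193. Without either V-S+ sample Col4a5 was at 0.0545 and Lama4 at 0.0727, and without V+S- of clone 5.1 Lama4 was at 0.0586 (adjusted p, limma). The call of Lama4 also ended with processed signals (0.0503), Cy3 alone (0.0523) and the authors' values (0.0769), which left Col4a5 at 0.0671 (adjusted p, limma). In each clone taken alone the rise was close to the mean: 1.35 and 1.37 for Col4a1, 1.51 and 1.79 for Col4a5, and 1.24 and 1.39 for Lama4, in clones 5.1 and 16.1.

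Lack of SSEA-1 without Venus was not accompanied by a detectable difference in these genes. Between V-S- and V-S+ the log2 difference was -0.12 for Col4a1 (standard error 0.14), -0.23 for Col4a5 (0.35) and -0.000029 for Lama4 (0.32). The adjusted p was 0.99998 for each (limma, Benjamini-Hochberg). Col4a5 was at -0.46 with processed scanner signals, -0.43 with the authors' values and -0.37 with median centring. Col4a1 was at -0.32 with median centring and -0.27 with Cy3 alone, and none of these was called. With 1 sample left out, Col4a1 ranged from -0.21 to -0.027, Col4a5 from -0.48 to 0.0061 and Lama4 from -0.19 to 0.19. No member had an unadjusted p below 0.05, and 0% of all probes were called higher, with clone as a block also 0%. Of all 29484 probes, 834 had an unadjusted p below 0.05 in this comparison.

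V+S+ cells show both Venus and SSEA-1, and the study asked whether they stand between undifferentiated cells and primitive endoderm. Against V-S+, the log2 difference was 0.48 for Col4a1 (standard error 0.14), 0.41 for Col4a5 (0.35) and 0.96 for Lama4 (0.32), which is 1.40-fold, 1.33-fold and 1.94-fold. In limma none was called, with adjusted p-values of 0.195, 0.534 and 0.219, and 0% of all probes were called higher. Col4a1 and Lama4 had an unadjusted p below 0.05, as had 5514 probes in all. With clone as a block, Lama4 was called higher (adjusted p = 0.00662, limma), as were 3.87% of all probes and 25.5% of the list's 1998. Col4a1 (adjusted p = 0.0410, limma) and Col4a5 (0.0401) passed the FDR in this fit but not the fold. All 3 genes were higher in V+S+ in both clones, by 0.38 and 0.59 for Col4a1, 0.23 and 0.60 for Col4a5, and 0.65 and 1.27 for Lama4 in clones 5.1 and 16.1. Leaving out V+S+ of clone 16.1 gave differences of 0.29, -0.0093 and 0.52 for Col4a1, Col4a5 and Lama4, and leaving out V+S+ of clone 5.1 gave 0.68, 0.84 and 1.39. Col4a5 was also at 0.17 without V-S+ of clone 5.1, at 0.66 without V-S+ of clone 16.1 and at 0.66 with the authors' values.

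The same arrays give the distance from V+S+ to V-S-, which shares the V+S+ samples with the comparison above. The log2 differences were 0.61 for Col4a1 (standard error 0.14), 0.65 for Col4a5 (0.35) and 0.96 for Lama4 (0.32). None was called in limma (adjusted p-values of 0.107, 0.320 and 0.164, with 0% of all probes called higher), and Col4a1 and Lama4 were among 6605 probes with an unadjusted p below 0.05. Col4a5 was at 1.07 with processed scanner signals and 1.09 with the authors' values, and not called. With clone as a block all 3 were called, at adjusted p-values of 0.0180, 0.00851 and 0.00476 (limma). In that fit 4.76% of all probes and 33.2% of the list's 1998 were called higher. With the V+S+ sample of clone 5.1 left out and no block, Col4a1 (0.80, adjusted p = 0.0400, limma) and Lama4 (1.39, adjusted p = 0.0495, limma) were called, and Col4a5 was at 1.07. With that of clone 16.1 left out instead, the log2 differences were 0.41, 0.23 and 0.52 for Col4a1, Col4a5 and Lama4, with adjusted p-values of 0.389, 0.892 and 0.614 (limma).

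From V+S+ to V+S- the means of all 3 genes were higher, with no call without the block. The log2 difference was 0.75 for Col4a1 (standard error 0.14), 1.00 for Col4a5 (0.35) and 0.36 for Lama4 (0.32). In limma none was called (adjusted p-values of 0.126, 0.266 and 0.680, with 0% of all probes called higher), and Col4a1 and Col4a5 were among 4429 probes with an unadjusted p below 0.05. With clone as a block Col4a1 (adjusted p = 0.0205, limma) and Col4a5 (0.00808) were called and Lama4 was not (0.136). That fit called 1.75% of all probes and 17.0% of the list's 1998 higher. A difference between the genes in this step was not tested. Leaving out V+S+ of clone 5.1 gave 0.56, 0.58 and -0.074 for Col4a1, Col4a5 and Lama4 in this step, and leaving out V+S+ of clone 16.1 gave 0.95, 1.42 and 0.79. Lama4 was also at 0.092 without V+S- of clone 16.1 and at 0.63 without V+S- of clone 5.1.

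**Figure D2:**
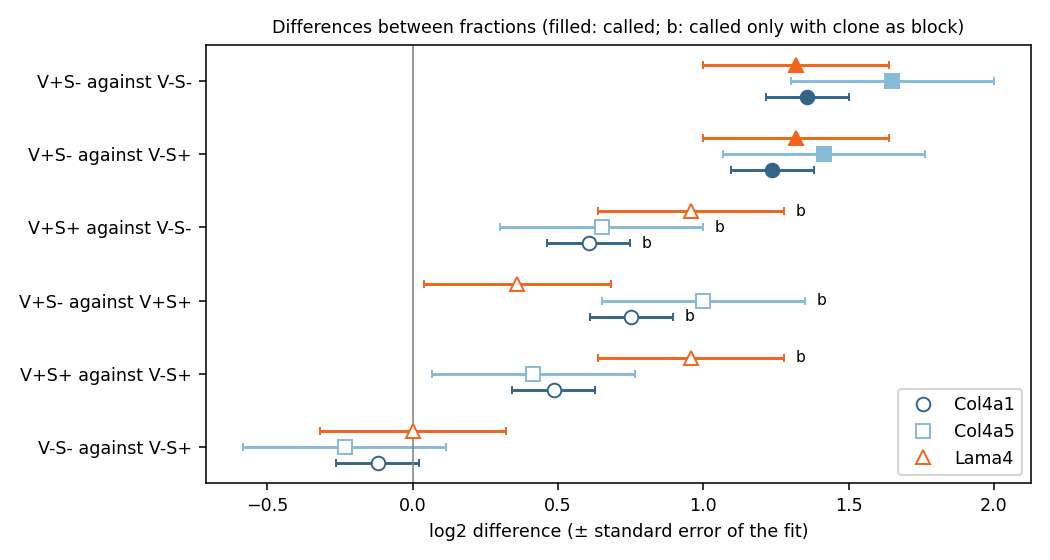
Log2 difference between fractions (horizontal axis) for each comparison (vertical axis), with the standard error of the fit, for Col4a1 (circles), Col4a5 (squares) and Lama4 (triangles). Filled marks were called without the block, and the letter b marks those called only with clone as a block; the 6 filled marks are the rises of V+S- over V-S+ and V-S-, between 1.24 and 1.65.

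As a description, the part of the rise from V-S+ to V+S- that was present in V+S+ was taken on the log2 scale. It was 27.6% in clone 5.1 and 54.0% in clone 16.1 for Col4a1, and 17.3% and 40.0% for Col4a5. For Lama4 it was 55.3% and 86.7%. In each clone Lama4 had the highest share of the 3 and Col4a5 the lowest, and each gene had a higher share in clone 16.1. The order of the genes was not tested. The gap between clones could not be, with 1 sample per clone and fraction.

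Whether Venus went with a larger difference in cells without SSEA-1 than in cells with it was tested as an interaction. The rise with Venus was larger without SSEA-1 by 0.87 for Col4a1 (standard error 0.20), by 1.24 for Col4a5 (0.49) and by 0.36 for Lama4 (0.45). None passed an FDR of 0.05 in limma (adjusted p-values of 0.571, 0.624 and 0.921), as 0% of all probes did, although Col4a1 and Col4a5 were among 2340 probes with an unadjusted p below 0.05. With clone as a block, Col4a5 passed (adjusted p = 0.0357, limma), and Col4a1 (0.0821) and Lama4 (0.357) did not. Above 0, 0.899% of all probes and 8.51% of the list's 1998 passed that test. The size moved most without a V+S+ sample. Without that of clone 5.1 it was 0.68 for Col4a1, 0.81 for Col4a5 and -0.074 for Lama4. Without that of clone 16.1 it was 1.07, 1.66 and 0.79. Col4a5 also moved to 0.91 without V+S- of clone 16.1 and to 1.56 without V+S- of clone 5.1. Without a V-S+ or V-S- sample Col4a5 was between 0.99 and 1.48. For Col4a1 the size stayed between 0.78 and 0.97 without any sample other than those of V+S+. Lama4 was at 0.092 without V+S- of clone 16.1 and at 0.17 without V-S- of clone 5.1, and moved to 0.63 without V+S- of clone 5.1, to 0.55 without V-S- of clone 16.1 and to 0.23 without V-S+ of clone 16.1. In clone 5.1 the rise of Col4a5 with Venus was 0.23 in SSEA-1 positive cells and 1.51 in SSEA-1 negative cells, and in clone 16.1 it was 0.60 and 1.79.

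Over the 4 fractions Col4a5 was higher in clone 16.1 by 0.59 on the log2 scale, 1.5003-fold (standard error 0.079, adjusted p = 0.00450, limma), which is just past the fold that a call needs. Lama4 was higher by 0.51, 1.43-fold (adjusted p = 0.0121, limma), and was not called for its size, and Col4a1 was at 0.080 (adjusted p = 0.570, limma). Of all probes 1.39% were called higher in clone 16.1, and of the list's 1998 probes 2.60%. Each clone was 1 line on 1 slide, and the test takes its 4 fractions as replicates. Its p-values therefore do not measure the spread between lines or slides, and clone and slide cannot be told apart. Col4a5 was no longer called without either V+S+ sample (log2 difference of 0.50) or either V+S- sample (0.57), and Lama4 was called as well without either V-S+ sample (0.60). With Cy3 alone the difference was 0.53 for Col4a5 and 0.54 for Lama4, and without either V+S+ sample that of Col4a1 was -0.023. Both genes were higher in clone 16.1 in all 4 fractions, whereas Col4a1 was lower there in V-S- and V+S-.

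The other chains named in the rows used of the study's list are the alpha 2 chain of collagen IV (Col4a2), the laminin beta 1 chain (Lamb1-1) and Lamb3, the beta 3 chain of a laminin that anchors epithelia. They are 3 of 13 chains described, and the rest were not analysed here. All 3 were called for a rise from V-S+ to V+S- in limma, and again against V-S-, with log2 differences against V-S+ of 1.07 for Col4a2, 0.89 for Lamb1-1 and 0.72 for Lamb3. In these comparisons 5.73% and 6.3% of all probes and 48.1% and 53.1% of the study's list were called higher. The median of the 3 chains against V-S+ was 0.89, beside 0.014 for all probes tested and 0.67 for the 1998 probes of the list. Between V+S+ and V-S+ they were at 0.35, 0.34 and 0.62 in the same order, with none called in limma without the block. Lamb3 was called with it, as were 3.87% of all probes and 25.5% of the study's list. From V+S+ to V+S- they were at 0.72, 0.54 and 0.094. Col4a2 was called with the block, as were 1.75% of all probes and 17.0% of the study's list.

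Col4a2, whose start overlaps that of Col4a1, was at -1.28 and -1.08 in V-S+, for clone 5.1 and then clone 16.1, and at -1.44 and -1.48 in their V-S- samples. The V+S+ samples were at -1.08 and -0.59, and the V+S- samples at -0.11 and -0.12. As for Col4a1, both V+S- samples lay above all others. The part of the rise present in V+S+ was 17.0% and 51.3% for Col4a2 and 29.8% and 48.7% for Lamb1-1 in clones 5.1 and 16.1. It was 72.3% and 101% for Lamb3. In both clones the 3 collagen IV chains and Lamb1-1 thus had lower shares than Lama4 and Lamb3, a contrast seen after the values were known and not tested.

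**Figure D3:**
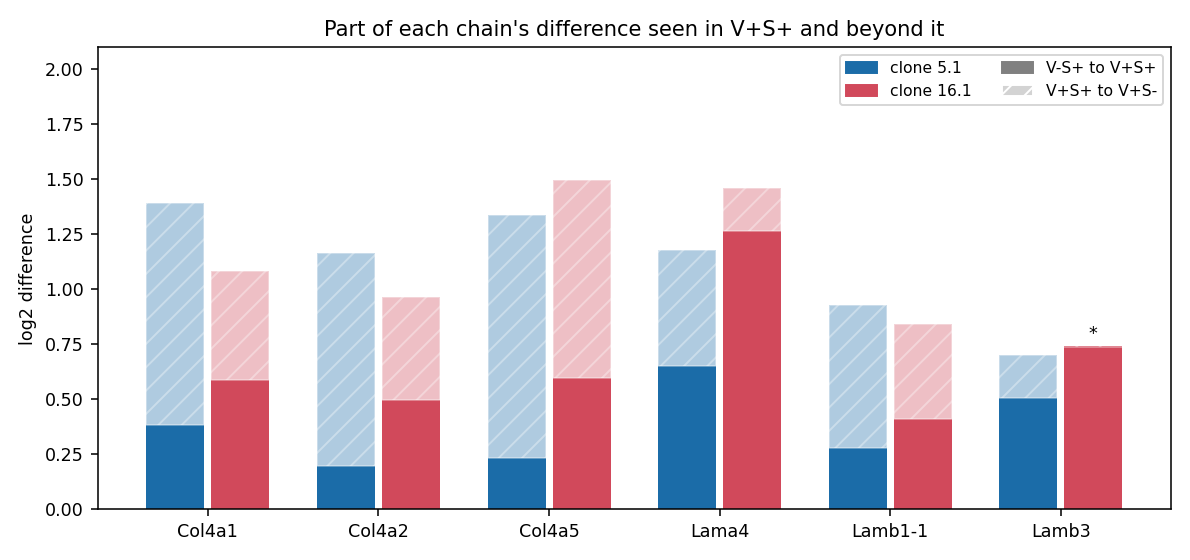
Log2 difference from V-S+ to V+S- (height of each bar) for 6 basement membrane chains in clone 5.1 (blue, left bar) and clone 16.1 (red, right bar). The solid part is the difference from V-S+ to V+S+ and the hatched part that from V+S+ to V+S-; the star marks Lamb3 in clone 16.1, where the second part was -0.0059 and no hatching can be seen. The solid part makes up 55.3% and 86.7% of the bar for Lama4 and 17.3% and 40.0% for Col4a5.

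Other proteins of the basement membrane and of collagen handling and the receptors and proteases that act on it were described from further lists in the same way. Of 4 other basement membrane proteins, 3 were called for a rise from V-S+ to V+S- in limma: the peroxidase Pxdn, which crosslinks collagen IV (log2 difference of 1.87), the anchoring fibril collagen Col7a1 (1.57) and the calcium-binding glycoprotein Sparc (1.0999). Smoc2 was at 0.73 and called only with the block. These counts stand beside 5.73% of all probes and 48.1% of the study's list called in the same comparison. Of 7 genes for folding, modifying and crosslinking collagen, 6 were called, among them the collagen chaperone Serpinh1 (1.61), the lysyl hydroxylase Plod2 (1.05) and the lysyl oxidase Lox (1.32). The seventh, the prolyl isomerase Ppib, passed the FDR at 0.53 but not the fold. None of these genes was called lower.

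Receptors and proteases moved the same way. Of 8 receptors for collagen IV and laminin, 7 were called for the same rise in limma, including the integrin chain Itgb1 (0.95), the collagen receptor Ddr1 (1.12) and the syndecans Sdc2 (1.36) and Sdc3 (1.43). Itga3 was at 0.63 and called only with the block. All 5 proteases and inhibitors were called, with Mmp9 at 1.87, Mmp14 at 1.62, Mmp2 at 1.17, and the inhibitors Timp3 and Timp1 at 1.16 and 0.81. Over all 5 lists 24 of 27 genes were called, with a median of 1.0999, while the list of the study from which every name came had 48.1% called and a median of 0.67. The share is therefore not a measure of these pathways as a whole, since only these 27 of 74 genes looked for were named in the rows used here.

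**Figure D4:**
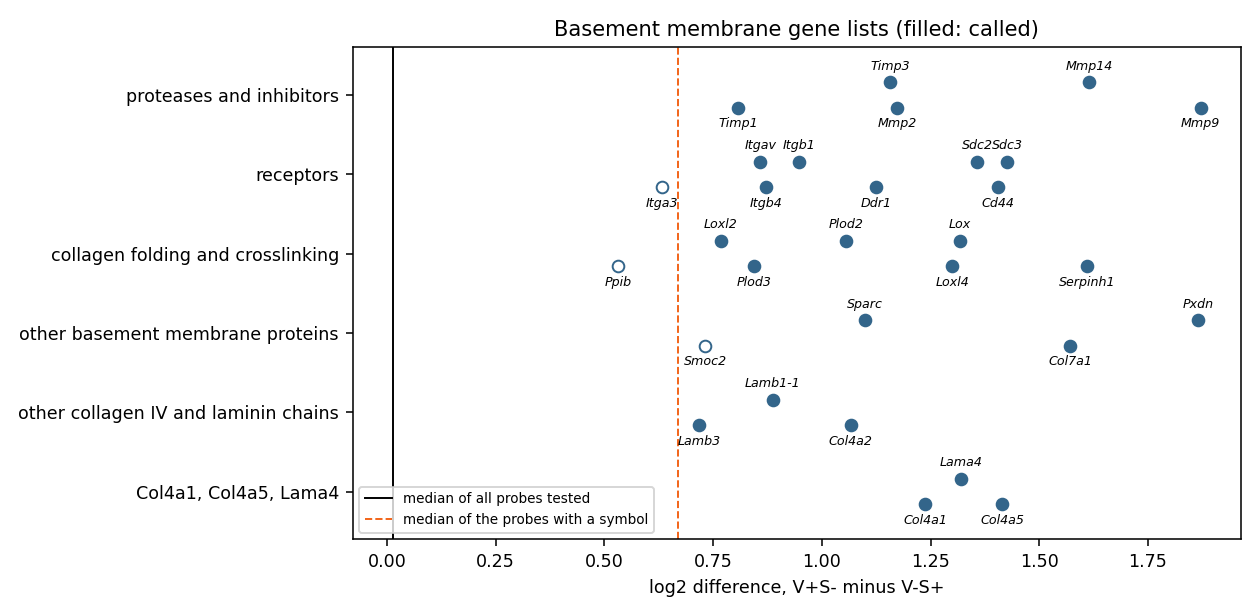
Log2 difference between V+S- and V-S+ (horizontal axis) for Col4a1, Col4a5 and Lama4 and for the named genes of 5 lists (vertical axis), with called genes filled. The black line is the median of all probes tested (0.014) and the dashed line that of the 1998 probes with a symbol (0.67); 24 of the 27 list genes are filled.

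Marker genes that the list names were set beside the sorted fractions. The list holds genes that differed among these fractions on the same arrays, so a marker that did not move could not be in it. These values are therefore a description and no check of the cell types. Of 14 primitive endoderm markers 5 were named (Gata6, Sox7, Dab2, Lrp2 and Afp). Their mean log2 ratio per sample was between -1.65 and -1.50 in the Venus-negative fractions. It was between -1.28 and -0.92 in V+S+ and between -0.50 and -0.46 in V+S-. Against V-S+, the 5 in V+S+ ranged from 0.17 for Gata6 to 1.08 for Lrp2, with a median of 0.40. In limma none was called without the block, and Lrp2 alone was called with it (3.87% of all probes and 25.5% of the list). Cy3 signal of Gata6 in V+S+ was 1.94 and 1.97 times background in clones 5.1 and 16.1, and that of Afp 1.95 and 2.60. The mean of 4 of 11 pluripotency markers (Nanog, Pou5f1, Dppa3 and Tdgf1) was between 1.59 and 1.80 in the Venus-negative fractions, between 1.07 and 1.56 in V+S+ and between 0.59 and 0.78 in V+S-. In V+S+ these 4 did not move together: against V-S+, Nanog was at -0.72 and Dppa3 at -1.37, whereas Pou5f1 was at 0.22 and Tdgf1 at 0.063, with none called in limma without the block and Nanog and Dppa3 called lower with it, as were 1.75% of all probes and 8.76% of the study's list. The named markers of other cell types moved with the 3 genes too. Of 11 markers of fibroblasts and mesenchyme 3 were named (Col1a2, Postn and Acta2). Their mean was between -3.83 and -3.28 in the Venus-negative fractions, between -3.43 and -2.66 in V+S+ and between -2.08 and -1.48 in V+S-. Of 8 trophoblast markers 2 were named (Gata3 and Krt7). Their mean was between -1.15 and -0.73 in the Venus-negative fractions, between -0.37 and -0.18 in V+S+ and between 0.038 and 0.28 in V+S-. None of 8 endothelial markers, of a tissue in which Lama4 is known, was named in the rows of the list used here. The part of such cells in the values of Col4a1, Col4a5 and Lama4 was not tested.

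The named genes whose pattern over the 8 samples was most like each member were looked up by Pearson's r, leaving the members out. For Col4a1 they were Spo11 (r = 0.99495), Faim3 (0.99466), Cryab (0.992), Ptx3 (0.99087) and St3gal1 (0.99078), which ranked between 3 and 9 among 29483 other probes, and Col4a2 ranked 18 (r = 0.989). For Col4a5 they were Nts (r = 0.999), Pcdh18 (0.99787), St3gal5 (0.99768), 6720475J19Rik (0.997) and the syndecan Sdc2 (0.99665), the first 5 of all probes. For Lama4 they were Notch3 (r = 0.99966), Stat5b (0.99907), Clic5 (0.998), Smo (0.99708) and Sox6 (0.99684), with ranks between 1 and 11. Among the members r was 0.923 for Col4a1 and Col4a5, 0.885 for Col4a1 and Lama4, and 0.932 for Col4a5 and Lama4, and Lamb3 was closer to Lama4 (r = 0.990, rank 209) than either collagen chain was. These correlations rest on 8 samples that share 2 slides and 4 fractions, and describe these arrays.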

How the data were processed

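The authors deposited 2 scanner files per array, which hold the intensity and local background of 43451 spots in each channel as written by the Agilent Feature Extraction software, and their own log10 table of 25164 probes. Between samples, the values of that table differed as the scanner-processed ratios of Cy3 to Cy5 did (r = 1 across probes); the level each probe was set to is unknown. Here, intensities of all spots were corrected by normexp with an offset of 50, controls were then given no weight and dropped, ratios were normalized by loess within each scan, outlier spots were left missing, and repeat scans were averaged, with limma 3.58.1 in R 4.3.3. Probes well above background in Cy3 in all files of at least 1 fraction, with a value in all samples, were tested (29484 of 42006). The 8 samples were fitted by lmFit and eBayes on fraction alone; the interaction used the same model, and the comparison of clones added a clone term.

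All fractions of a clone come from the same cell line, so the clone number pairs the samples. What a clone had above or below each fraction's mean correlated across probes between fractions (r between 0.59 and 0.81 over 6 pairs of fractions), and a fit with clone as a replicate block was run beside the other. Nothing states that fractions of a clone came from separate cultures. Without the block, p-values therefore measure the spread between these clones. With the block, and in the comparison of clones, they measure the spread left after a constant difference between clones is taken out.

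Gene names came from the first 1998 rows of the study's list of genes that differed among the fractions, and its further rows were not used here. The members, gene lists and tests were chosen with earlier results of these data known, and 1 gene of the lists is not reported here and enters none of the lists' counts or medians. Named genes were the members, genes of 5 lists and 5 marker lists, and for each member the 5 named probes with the most similar pattern. Promoter sequences are from RefSeq (GRCm38.p6); probe sequences are from the scanner files, whose headers name an older build and an array design number other than the one in the methods. The scripts were tested on simulated data. Alternatives were processed signals, no background correction, median centring, Cy3 alone with quantile normalization, filters on dim probes, each scan alone, the authors' log10 values, the block, only the fractions compared, no fold threshold, and each sample left out.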

Additional observations from a re-analysis of the deposited data

Results flagged for a closer look

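The rise of Col4a5 with Venus differed between SSEA-1 negative and SSEA-1 positive cells by 1.24 on the log2 scale. This difference passed an FDR of 0.05 with clone as a block (adjusted p = 0.0357, limma) but not without it (0.624). With the block, 0.899% of all probes and 8.51% of the study's list passed above 0. Leaving out 1 sample moved the difference to between 0.81 and 1.66, both without a V+S+ sample. The difference had the same direction in both clones, with rises of 1.51 against 0.23 in clone 5.1 and 1.79 against 0.60 in clone 16.1. Cy3 signal of Col4a5 was between 2.13 and 12.3 times background. Groups of 2 samples were too small to look for outlying samples.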

How the results depend on the processing

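Without the block, the rises of V+S- over V-S+ were called for all 3 genes, and for 1, Col4a1, with processed signals, with median centring and with the authors' log10 values, which also called 1 against V-S-. With clone as a replicate block the number called became 1 for V+S+ against V-S+, 2 for V+S- against V+S+, 3 for V+S+ against V-S- and 1 for the interaction, and no other count of calls between fractions changed. Between clones, 2 genes were called with processed signals and 0 with Cy3 alone or the second scan alone, Col4a5 lying at the fold threshold. With 1 sample left out, the number called ranged from 0 to 3 for V+S- against V-S+ and against V-S-, from 0 to 2 for V+S+ against V-S- and between clones, and was 0 for the other comparisons; a lone sample is then assumed to vary like the others. The difference of Lama4 between V-S- and V-S+ turned to 0.012 with Cy3 alone and 0.0089 with the second scan alone. Signs also turned when samples were left out. The range was -0.19 to 0.19 for this value and -0.48 to 0.0061 for Col4a5 in the same comparison. It was -0.0093 to 0.84 for Col4a5 in V+S+ against V-S+, and -0.023 to 0.15 for Col4a1 between clones. For Lama4 it was -0.074 to 0.79 in V+S- against V+S+ and in the interaction. Between fractions these fits had no block, so a left-out sample made the clones unbalanced. Within clones 5.1 and 16.1, Col4a5 differed by 0.23 and 0.60 in V+S+ against V-S+ and by -0.18 and -0.29 in V-S- against V-S+. Lama4 differed by -0.067 and 0.067 in V-S- against V-S+ and by 0.53 and 0.19 in V+S- against V+S+. The rises in V+S- kept their sign throughout, from 1.05 to 1.92 against V-S+ and from 1.05 to 2.39 against V-S-. Median centring shifted the median of all probes to 0.13 for V+S- against V-S- and -0.12 for V-S- against V-S+, where Col4a1 was then at -0.32. The cause of these changes was not tested. Cy3 signal over background was lowest for Col4a5 and Cy5 signal for Lama4; what this does to precision was not tested.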
